A study of Rattus norvegicus with 18 samples.

Results

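The livers compared came from 6 male Wistar rats kept to 24 months, 3 on fish oil and 3 on virgin olive oil. They were chosen by array title and make up 6 of the 18 arrays of the series, which also holds a sunflower oil group of this age and the same 3 oils at 6 months. All rats received a semi-synthetic feed from weaning onward in which the named oil supplied the fat, at 4% by weight, so no group was fat-free and each difference is one oil against another. Feed was unlimited for the first 2 months and then restricted to 25 g per rat daily, with 3 rats in each cage. The labels do not say which rats shared a cage, so oil and cage cannot be told apart where a group was 1 cage. RNA from 1 piece of liver per rat was hybridised to 1 Affymetrix Rat Genome 230 2.0 array, an oligonucleotide array on which a set of probes reports each transcript. The labels' tissue was borne out by the markers, with albumin (Alb) at signals of 7462.0 to 9380.3 in the fish oil livers and 7817.9 to 10032.7 in the olive oil livers.

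Long-chain polyunsaturated fatty acids of the n-3 series come with fish oil, while virgin olive oil supplies mainly oleic acid, a monounsaturated fatty acid. In liver, long-chain polyunsaturated fatty acids bind PPAR-alpha, a nuclear receptor that switches on genes of fatty acid uptake and of peroxisomal, mitochondrial and microsomal oxidation. They also hold back SREBP-1c, the transcription factor that drives fatty acid synthesis and the desaturases, both by lowering its transcript and by slowing its release from the endoplasmic reticulum.

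Of 14217 genes tested with limma, 0 (0%) passed an adjusted p of 0.05 between the oils at 24 months. The lowest adjusted p was 0.0998, for Mcm5, so every difference given for a gene here is a value and not a call. At an unadjusted p under 0.05 there were 1135 genes, 784 higher (5.51% of all tested) and 351 lower (2.47%) with fish oil. The arrays of the oils did not overlap for 998 genes with fish oil higher (7.02%) and for 701 with fish oil lower (4.93%). Full separation of 3 livers from 3 corresponds to an exact two-sided permutation p of 0.1, so it arises readily with no true difference. A lack of overlap in a single gene is therefore weak evidence. Differences are on the log2(signal + 16) scale, fish oil minus olive oil, with the standard error of the fit, and the median over all genes was 0.02. The 3 animals of a group set the precision, and the spread was pooled over the 6 groups of the series.

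The third fish oil liver stood apart from the other 8 livers of its age. On the first principal component of the 9 arrays at 24 months (31.6% of the variance) it lay at 56.9, with the others between -17.3 and 8.1. It held 238 genes at least 2-fold above and 59 at least 2-fold below every other liver of that age, where no other liver had more than 20 in either direction. Leaving it out took the genes at an unadjusted p under 0.05 from 1135 to 615, with 0 passing the adjusted threshold. Leaving out the first fish oil liver instead gave 53 genes past the threshold, 49 of them higher, with Mmp12 and Gpnmb, both markers of lipid-laden macrophages, and Lcn2 in front. Values without the third fish oil liver are therefore given beside the genes and lists that it moved most. The first olive oil liver stood apart on the second component (16.3% of the variance), at 34.7, with the others between -22.5 and 5.6. Leaving out that liver gave 832 genes at an unadjusted p under 0.05.

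Among genes of fatty acid handling, the acyl-CoA thioesterase Acot1 separated the oils most widely. Acot1 cleaves long-chain acyl-CoA to free fatty acid and CoA in the cytosol and is a known PPAR-alpha target. Its signals were 2742.6, 2733.0 and 1965.1 in the fish oil livers and 94.6, 82.8 and 149.9 in the olive oil livers, and the sunflower oil livers of the same age had 109.1, 205.3 and 151.1. All 3 fish oil livers, the third included, thus lay far above the 6 other livers. The difference was 4.34 ± 1.384 (20.2-fold, 95% interval 1.41 to 7.27, adjusted p = 0.428). Its standard error was 0.241 when only the 6 arrays were fitted (adjusted p = 0.00247) and 0.277 without the arrays numbered 2 at 6 months (adjusted p = 7.69e-06). Those arrays read 53.5 with fish oil and 4.8 with olive oil, against 2727.6 and 2688.1, and 283.4 and 375.5, in the other young livers of each oil.

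Acot1 lies in a row of thioesterase genes on chromosome 6 of the rat, in the order Acot2, Acot1, Acot4, Acot3 and Acot5 on the same strand, with starts spread over 90.2 kb (RefSeq, GRCr8). Acot2 is the mitochondrial enzyme of the family, and Acot3 and Acot4 are peroxisomal. Acot3 read 1156.3, 482.6 and 292.9 with fish oil and 206.4, 215.4 and 102.4 with olive oil (1.63 ± 0.574, adjusted p = 0.475). Acot2 read 2327.1, 1302.7 and 1962.2 with fish oil and 630.8, 796.9 and 1039.8 with olive oil (1.15 ± 0.587), and its other probe sets gave 0.52 and 0.89. Acot4 read 1777.8, 1316.3 and 935.3 with fish oil and 799.3, 831.1 and 647.7 with olive oil (0.77 ± 0.483). In all 4 genes the groups did not overlap, and Acot1 differed by the widest margin. The enzymes are close paralogs, and how far 1 gene's transcript also binds another's probes was not tested.

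The promoter windows of Acot1 and Acot4, 250 bases before to 50 after the start in RefSeq's GRCr8 table, are shown because these neighbouring genes differed by very unequal amounts. Acot1 is read on the plus strand at chr6:109367024-109367323 and Acot4 at chr6:109399604-109399903. The half-site of nuclear receptors, AGGTCA, was searched on both strands and is in capitals where found (as TGACCT on the strand shown).
Acot1: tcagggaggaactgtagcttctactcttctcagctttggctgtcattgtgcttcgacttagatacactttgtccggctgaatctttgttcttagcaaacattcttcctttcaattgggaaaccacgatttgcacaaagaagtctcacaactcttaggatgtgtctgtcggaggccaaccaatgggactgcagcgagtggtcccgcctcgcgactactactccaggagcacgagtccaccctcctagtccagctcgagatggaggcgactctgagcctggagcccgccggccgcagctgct
Acot4: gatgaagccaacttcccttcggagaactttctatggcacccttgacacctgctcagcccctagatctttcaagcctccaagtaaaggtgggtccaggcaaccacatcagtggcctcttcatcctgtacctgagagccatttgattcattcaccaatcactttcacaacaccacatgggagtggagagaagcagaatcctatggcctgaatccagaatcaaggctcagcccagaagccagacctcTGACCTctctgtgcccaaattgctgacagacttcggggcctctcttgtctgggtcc
The half-site lay 6 bases before the start in Acot4 and had no match in the Acot1 window, which says nothing of sites outside it. By list, it was in 8 of 21 promoters of peroxisomal oxidation genes (38.1%), in 4 of 24 of mitochondrial oxidation genes (16.7%) and in 4305 of all 27457 promoters in the table (15.7%). Ungapped, the windows of Acot1 and Acot4 agreed at 24.7% of positions.

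**Figure D1:**
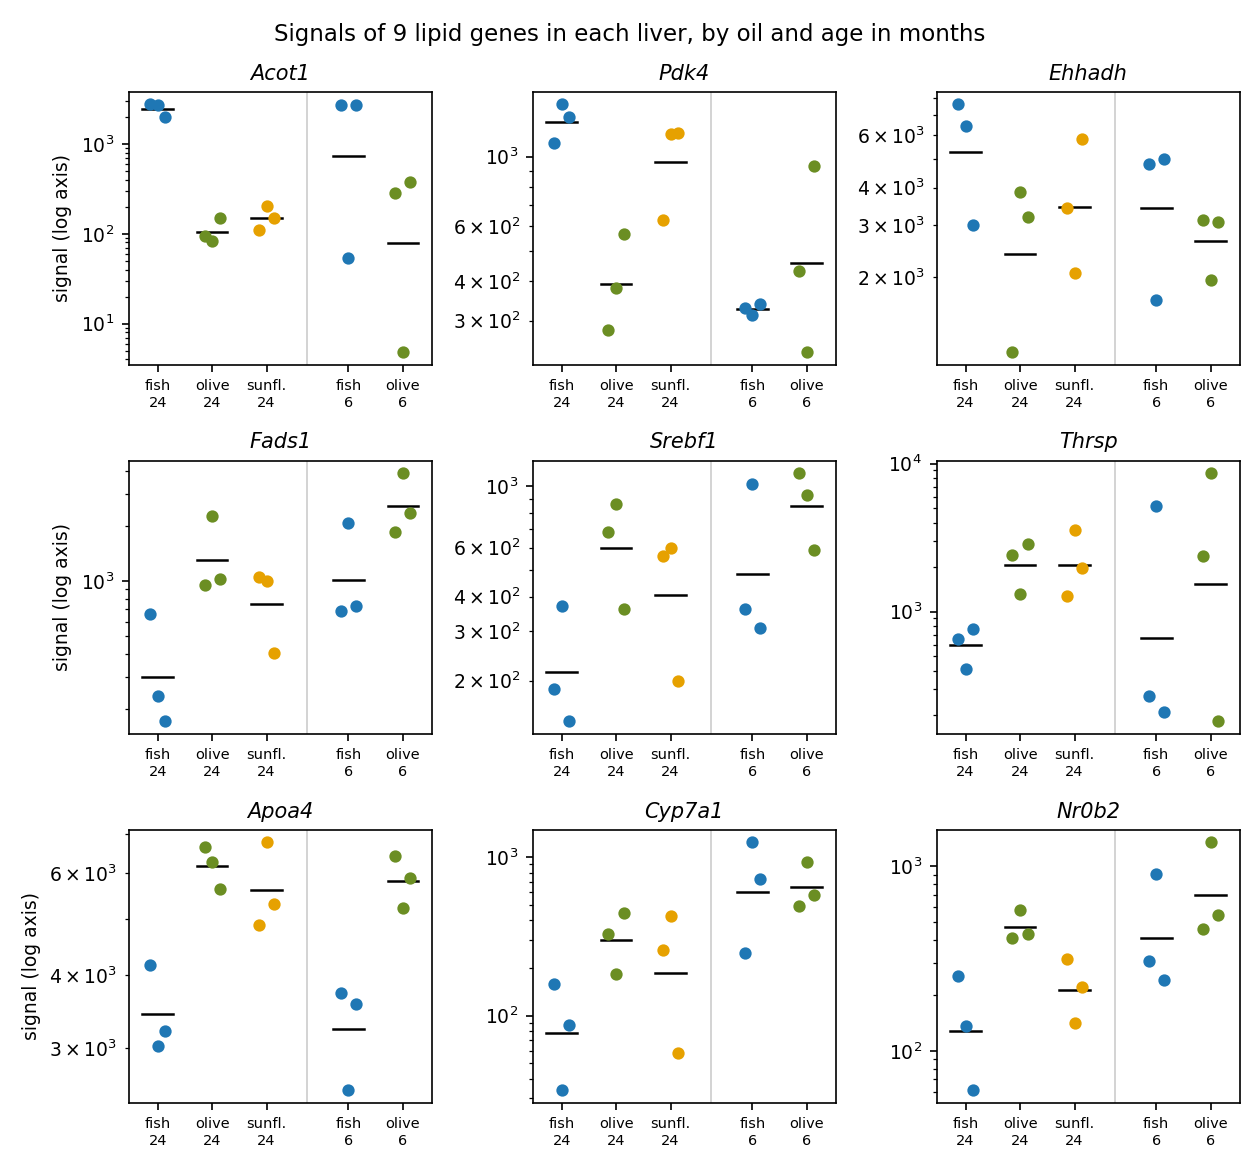
Signal (log axis) of 9 genes of lipid metabolism in each liver at 24 months with fish, olive or sunflower oil and at 6 months with fish or olive oil. Points are livers, 3 in each group, and bars are geometric means. Acot1, Pdk4 and Apoa4 show no overlap between fish oil and olive oil at 24 months, whereas the lowest fish oil value of Ehhadh lies among the olive oil values.

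Fatty acid oxidation genes were higher in part of the list. Pdk4, the kinase that blocks pyruvate dehydrogenase and so spares glucose when fat is burned, read 1102.9, 1468.6 and 1336.0 with fish oil and 279.8, 380.9 and 567.3 with olive oil (1.68 ± 0.384, 3.2-fold, adjusted p = 0.239). Its lowest fish oil liver was above its highest olive oil liver, and a second probe set gave 1.03. The sunflower oil livers read 628.4, 1179.0 and 1188.3, so sunflower oil and fish oil overlapped for Pdk4. Pex11a, which makes peroxisomes divide, read 1607.2, 846.7 and 550.5 with fish oil and 239.2, 304.8 and 506.1 with olive oil (1.40 ± 0.515, adjusted p = 0.51). Its fish oil livers were spread widely, and the lowest lay just above the highest olive oil liver. Ehhadh, the peroxisomal bifunctional enzyme, read 7606.8, 6415.6 and 2997.9 with fish oil and 1119.3, 3872.4 and 3190.8 with olive oil (1.13 ± 0.565), and here the third fish oil liver overlapped the olive oil group.

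The carnitine transporter Slc22a5 read 527.1, 349.6 and 493.1 with fish oil and 148.3, 177.0 and 239.5 with olive oil (1.21 ± 0.583, adjusted p = 0.633). Angptl4, a secreted inhibitor of lipoprotein lipase, read 2011.1, 1665.2 and 1825.7 with fish oil and 1002.1, 1327.3 and 967.1 with olive oil (0.74 ± 0.343). Both genes separated the oils in all 6 livers. Vnn1, a pantetheinase and PPAR-alpha target, differed by 1.18 ± 0.679 and Cyp4a1, the microsomal omega-hydroxylase, by 0.72 ± 0.678, both without overlap. Cpt1b, the muscle form of the mitochondrial carnitine palmitoyltransferase, differed by 0.82 ± 0.384 at signals of 39.5 to 62.2 with fish oil and 10.4 to 35.7 with olive oil.

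Other members showed no such separation. Cpt1a, the liver form of carnitine palmitoyltransferase, read 3557.8, 2521.3 and 2660.5 with fish oil and 2957.0, 3313.4 and 2690.4 with olive oil, so the groups overlapped (-0.05 ± 0.303, 95% interval -0.69 to 0.59, sign reversed to 0.09 after quantile normalization). The fatty acid transporter Cd36 differed by 0.57 ± 0.541, the lipid droplet protein Plin2 by 0.13 ± 0.338 (0.75 on a dimmer probe set) and the fatty acid binding protein Fabp1 by -0.16 ± 0.124. The hormone Fgf21 differed by 0.15 ± 0.747 and catalase (Cat) by -0.19 ± 0.16, with overlap in each. Ppara itself, the receptor's transcript, read 59.0, 32.7 and 15.2 with fish oil and 42.2, 49.1 and 51.3 with olive oil (-0.39 ± 0.442, and -0.07 without the third fish oil liver).

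By list, 13 of 22 measured genes of peroxisomal oxidation were higher with fish oil (median 0.11), 4 of them without overlap and 1 lower without overlap. In mitochondrial oxidation and ketogenesis 16 of 28 were higher (median 0.06, 7 without overlap), and in microsomal oxidation and lipid handling 20 of 29 (median 0.18, 6 without overlap). Over all genes tested, 53.6% were higher, 7.02% were higher without overlap and 4.93% lower without overlap. Without the third fish oil liver, 19 of 22 peroxisomal, 25 of 28 mitochondrial and 23 of 29 microsomal genes were higher, with medians of 0.28, 0.20 and 0.24. Without the first fish oil liver instead, 12 of 22, 12 of 28 and 15 of 29 were higher, with medians of 0.04, -0.05 and 0.00. These lists thus depended on which fish oil liver was left out, and also on the scaling. Quantile normalization gave 14 of 22, 21 of 28 and 21 of 29 higher, with medians of 0.21, 0.17 and 0.18. Under that scaling 6850 of all 14217 genes were higher. The level of the peroxisomal list, as the median of its members against the olive oil mean, was 0.42, 0.18 and -0.04 in the 3 fish oil livers and -0.02, 0.01 and 0.06 in the olive oil livers.

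Genes of fatty acid synthesis were mostly lower with fish oil, and those of desaturation and elongation were divided. Srebf1, which encodes SREBP-1, read 186.3, 371.4 and 142.7 with fish oil and 684.1, 860.4 and 359.9 with olive oil (-1.40 ± 0.514, adjusted p = 0.51), and the second fish oil liver lay just above the third olive oil liver. A second probe set of Srebf1 gave -1.14. Fads1, the delta-5 desaturase that makes arachidonic and eicosapentaenoic acid, read 657.2, 234.9 and 171.4 with fish oil and 951.4, 2250.4 and 1031.8 with olive oil (-2.06 ± 0.559, 4.17-fold, adjusted p = 0.34). The oils did not overlap for Fads1. Fads2, the delta-6 desaturase that acts before it, read 524.4, 234.4 and 169.3 with fish oil and 324.0, 1188.4 and 852.9 with olive oil (-1.28 ± 0.515), with overlap through the first liver of each group.

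Thrsp, a spot protein that follows the rate of lipogenesis, read 651.5, 413.1 and 769.8 with fish oil and 2400.3, 1313.3 and 2853.8 with olive oil (-1.79 ± 1.28, adjusted p = 0.773). The groups did not overlap. The error is pooled over both ages, and the young livers numbered 2 read 5140.2 and 8598.0, against 181.5 to 2375.8 in the other young livers of these oils. Lpin1, the phosphatidate phosphatase of triglyceride synthesis, read 261.6, 157.6 and 210.5 with fish oil and 611.3, 378.7 and 572.1 with olive oil (-1.25 ± 0.746), again without overlap. The ATP citrate lyase Acly differed by -0.52 ± 0.927, without overlap. Fasn (-0.81 ± 1.335), Elovl6 (-0.73 ± 0.998), Acaca (-0.29 ± 0.976) and Me1 (-0.09 ± 0.911, and 0.23 on its other probe set), enzymes of synthesis and of its NADPH supply, overlapped.

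Elovl2 and Elovl5 lengthen polyunsaturated chains, and they differed by -0.75 ± 0.32 and -0.55 ± 0.266, the second without overlap. Scd, the main liver stearoyl-CoA desaturase, ran from 1332.4 to 4317.1 with fish oil and from 427.7 to 4875.6 with olive oil, and its difference of 0.20 ± 2.512 has no settled sign. The isoform Scd2 went the other way from the list, at 50.3, 107.7 and 141.6 with fish oil and 25.6, 47.7 and 23.1 with olive oil (1.21 ± 0.325, adjusted p = 0.34), but the 3 dimmer probe sets of Scd2 gave -0.01, 0.09 and 0.00. Fads3, a desaturase of the same gene cluster as Fads1 and Fads2, was also higher without overlap, at 31.2 to 69.8 against 15.4 to 21.0 (0.83 ± 0.34).

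Of 26 measured genes of the SREBP-1c list, 22 were lower (median -0.28), 3 of them without overlap and 1 at an unadjusted p under 0.05. Among all genes tested 4.93% were lower and 7.02% higher without overlap, and 2.47% were lower at that p. The list's level was -0.26, -0.32 and -0.26 in the fish oil livers and -0.07, -0.05 and 0.12 in the olive oil livers, so the groups did not overlap and the third fish oil liver did not stand apart. In the sunflower oil livers it was -0.14, 0.28 and 0.09. At 6 months the level was 0.73 and 1.89 in the fish oil and olive oil livers numbered 2, against -0.75 to -0.15 in the other young livers of these oils. In the list of polyunsaturated fatty acid desaturation and elongation, 6 of 11 were lower (median -0.10), with 2 lower and 3 higher without overlap, and without the third fish oil liver 6 were higher (median 0.01).

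The promoters of Fads1 and Srebf1 are shown as the member with the largest difference among the desaturases and the regulator of the list. They lie at chr1:216252442-216252741 on the plus strand and chr10:45529115-45529414 on the minus strand (GRCr8), and the capitals mark CCAAT, the box bound by NF-Y, a partner of SREBP (as ATTGG where it is on the other strand).
Fads1: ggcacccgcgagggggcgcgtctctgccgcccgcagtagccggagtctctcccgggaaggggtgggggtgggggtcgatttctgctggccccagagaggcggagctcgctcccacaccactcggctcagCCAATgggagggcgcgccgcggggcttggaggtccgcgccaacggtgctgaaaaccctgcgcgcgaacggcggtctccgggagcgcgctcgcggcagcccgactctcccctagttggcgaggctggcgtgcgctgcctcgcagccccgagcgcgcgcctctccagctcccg
Srebf1: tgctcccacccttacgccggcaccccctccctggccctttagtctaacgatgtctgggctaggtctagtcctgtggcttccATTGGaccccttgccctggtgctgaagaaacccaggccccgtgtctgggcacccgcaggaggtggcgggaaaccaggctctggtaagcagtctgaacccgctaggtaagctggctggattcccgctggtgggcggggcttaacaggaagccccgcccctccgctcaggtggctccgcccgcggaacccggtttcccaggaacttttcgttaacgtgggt
The box began 121 bases before the start in Fads1 and 169 before it in Srebf1. It was in 13 of 21 promoters of the SREBP-1c list (61.9%) and in 5 of 11 of the desaturation and elongation list (45.5%). Over all promoters in the table the share was 37.7%. The sterol regulatory element TCACCCCAC was in 0 of the 21 and in 0.495% of all.

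Cholesterol genes were divided. Insig1, which holds SREBP back in the endoplasmic reticulum, read 306.5, 230.2 and 591.7 with fish oil and 622.4, 733.3 and 689.1 with olive oil, without overlap (-0.94 ± 0.703, adjusted p = 0.786). Of 22 measured SREBP-2 targets, 11 were higher and 11 lower (median 0.01), or 6 and 16 (median -0.15) without the first olive oil liver. Insig1 was the only one without overlap, near the share of 4.93% lower over all genes. Squalene epoxidase (Sqle), at signals of 2.4 to 58.0, differed by 0.27 ± 0.451 and by -0.21 without the third fish oil liver. Nceh1, the neutral cholesterol ester hydrolase, read 325.2, 336.0 and 368.8 with fish oil and 74.8, 137.6 and 130.0 with olive oil. The lowest fish oil liver was well above the highest olive oil liver, and the sunflower oil livers lay between them at 194.0 to 281.7 (1.5 ± 0.28, 2.83-fold, adjusted p = 0.23).

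Bile acid synthesis was represented by Cyp7a1, its rate-limiting enzyme, which read 158.4, 33.7 and 87.3 with fish oil and 326.6, 183.6 and 446.0 with olive oil (-1.71 ± 0.688, adjusted p = 0.541). Nr0b2, the bile acid-induced repressor SHP, was lower too, at 253.3, 135.9 and 61.1 against 406.9, 580.0 and 432.2 (-1.72 ± 0.575, adjusted p = 0.454). Neither gene overlapped between the oils. Cyp8b1, which sets the cholic acid share, differed by 0.05 ± 0.419 and the bile acid uptake carrier Slc10a1 by -0.42 ± 0.188, or -0.15 once the third fish oil liver was left out. Of 27 measured genes of the list, 12 were higher and 15 lower (median -0.07), and 16 were higher (median 0.16) without the third fish oil liver.

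Apolipoprotein genes were lower with fish oil at high signals. Apoa4, a lipoprotein component induced by fat absorption and fasting, read 4163.9, 3025.3 and 3205.7 with fish oil and 6660.1, 6278.1 and 5636.4 with olive oil (-0.85 ± 0.177, 1.8-fold, adjusted p = 0.239). Apoa1, the main protein of HDL, read 5941.9, 4042.3 and 4709.2 against 9412.7, 7534.5 and 7360.1 (-0.73 ± 0.177, adjusted p = 0.286). In both genes the highest fish oil liver was below the lowest olive oil liver. Apom (-0.58 ± 0.185), Apoc4 (-0.48 ± 0.146) and Apoc2 (-0.45 ± 0.158) were also lower without overlap.

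Of 27 measured genes of lipoproteins and lipid transport, 18 were lower (median -0.19), 8 of them without overlap and 6 at an unadjusted p under 0.05. Among all genes 4.93% were lower and 7.02% higher without overlap, and 2.47% were lower at that p. The list median was -0.07 without the second olive oil liver and -0.06 after quantile normalization. That scaling also took the difference of Apoa4 to -0.71 and of Apoa1 to -0.59. Of the 9 list members that were higher, 3 did not overlap: Lpl, the lipoprotein lipase, Lrp1, a receptor for remnant lipoproteins (0.49), and Abcg1, a cholesterol exporter of macrophages (0.81, or 0.47 without the third fish oil liver). The other probe sets of Abcg1 gave -0.04 and 0.36. Lpl read 86.1, 109.0 and 397.6 with fish oil and 32.9, 50.8 and 84.4 with olive oil (1.34 ± 0.443), and 0.71 remained without the third fish oil liver. Mfsd2a, which carries docosahexaenoic acid as lysophosphatidylcholine, read 516.8, 282.7 and 505.1 against 1121.3, 920.9 and 841.4, without overlap (-1.15 ± 0.272, adjusted p = 0.252).

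Amino acid and glucose enzymes under hormonal control were lower in part. Tat, the tyrosine aminotransferase that glucocorticoids induce, read 1098.8, 579.0 and 548.0 with fish oil and 2018.9, 2151.1 and 1482.1 with olive oil (-1.38 ± 0.323, adjusted p = 0.249). Tsc22d3, the glucocorticoid-induced leucine zipper protein, read 612.8, 364.7 and 354.5 against 1478.9, 1259.8 and 1236.1 (-1.58 ± 0.39, 3-fold, adjusted p = 0.286). Neither overlapped. Sunflower oil livers read 433.8, 726.1 and 1161.4 for Tsc22d3 and so reached from near the fish oil to near the olive oil values. Pfkfb1, which sets fructose 2,6-bisphosphate in liver, differed by -1.49 ± 0.451, the alanine aminotransferase Gpt by -1.16 ± 0.395 and the serine dehydratase Sds by -1.98 ± 1.092, all without overlap. Without the third fish oil liver Pfkfb1 differed by -0.99 and Gpt by -0.75. In the list of glucose metabolism 21 of 30 were lower (median -0.19, or -0.09 without that liver), 7 without overlap (4.93% over all genes). Irs2, an insulin receptor substrate (0.49), was among 3 higher without overlap, near the share of 7.02% over all genes.

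Oxidative phosphorylation was the most uniform of the lists. All 58 measured genes, which encode respiratory chain and ATP synthase subunits, were lower with fish oil (median -0.32, where the median over all genes was 0.02). Of them 22 did not overlap and 15 had an unadjusted p under 0.05, against 4.93% and 2.47% lower over all genes. Cox8a, a subunit of cytochrome c oxidase, read 2256.1, 2558.8 and 2298.5 with fish oil and 4205.9, 3065.1 and 2916.1 with olive oil (-0.50 ± 0.167, adjusted p = 0.454). Ndufa8, of complex I, read 1190.2, 982.4 and 924.5 against 1852.3, 1230.3 and 1459.3 (-0.53 ± 0.172, adjusted p = 0.439). In both genes the 3 fish oil livers lay below the 3 olive oil livers, and the first olive oil liver was the highest. Ndufb8 (-0.67 ± 0.261) and the ATP synthase subunit Atp5me (-0.57 ± 0.28, and -0.10 on a dimmer probe set) had the largest differences of the list.

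All 58 stayed lower after quantile normalization (median -0.21) and 57 of 58 without the third fish oil liver (median -0.24). Without the first olive oil liver 56 were lower, and the median was -0.19. The level of the list was -0.17, -0.32 and -0.44 in the fish oil livers, 0.24, -0.17 and -0.05 in the olive oil livers and -0.20, 0.05 and -0.01 in the sunflower oil livers, so on this measure the second olive oil liver matched the highest fish oil liver. At 6 months the median difference between the oils was 0.01. Genes of hepatocytes moved the same way at 24 months, with 13 of 14 hepatocyte markers lower (median -0.24) and 9 of 10 periportal markers (median -0.43), or 10 and 8 (medians -0.11 and -0.36) after quantile normalization, and their part in the result was not tested.

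The promoter of Ndufb8 (chr1:253362887-253363186, minus strand, GRCr8) is shown as the member with the smallest p that holds TGCGCA, a core of the NRF-1 site, in capitals.
Ndufb8: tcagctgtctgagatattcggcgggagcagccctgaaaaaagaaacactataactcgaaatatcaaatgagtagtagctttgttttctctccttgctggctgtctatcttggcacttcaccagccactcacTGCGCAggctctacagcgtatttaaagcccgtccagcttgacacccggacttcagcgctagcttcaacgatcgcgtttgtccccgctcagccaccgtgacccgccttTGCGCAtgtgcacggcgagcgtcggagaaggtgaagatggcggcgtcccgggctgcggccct
The core began 119 and 12 bases before the start. It was in 13 of 51 promoters of the list (25.5%) and in 7.68% of all promoters in the table, searched as 1 strand because it reads the same on both. AGGTCA was in 18 of the 51 (35.3%).

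**Figure D2:**
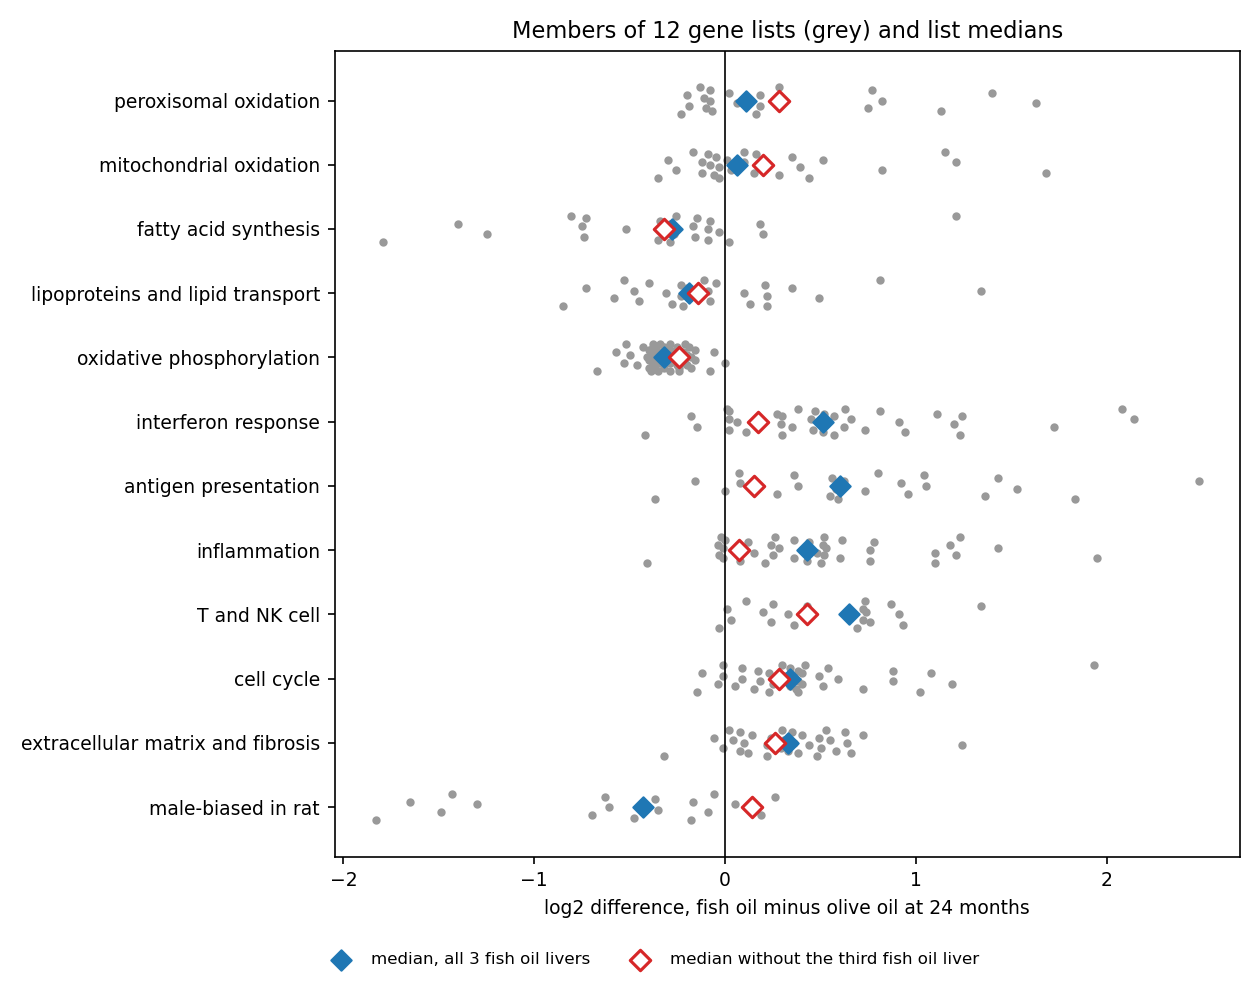
Log2 difference, fish oil minus olive oil at 24 months, for the members of 12 gene lists (grey points), with the list median over all 3 fish oil livers (filled) and without the third (open). The median of oxidative phosphorylation moves from -0.32 to -0.24, whereas that of antigen presentation moves from 0.60 to 0.15 and that of male-biased genes from -0.43 to 0.14.

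Of 35 measured antioxidant and NRF2 target genes, 12 were higher and 23 lower (median -0.13, or -0.05 without the first olive oil liver). The 3 higher without overlap were near the share of 7.02% over all genes, and 1 was lower without overlap. Nqo1, the quinone reductase that NRF2 induces, read 324.6, 117.3 and 390.9 with fish oil and 83.0, 75.3 and 80.6 with olive oil (1.47 ± 0.379, 2.77-fold, adjusted p = 0.307). The sunflower oil livers read 323.4, 334.1 and 272.9, so the olive oil livers were the lowest of the 3 oils. Nfe2l2, which encodes NRF2, read 801.4, 1041.4 and 1190.4 against 574.8, 792.4 and 750.7 (0.50 ± 0.193), and Osgin1, an oxidative stress response gene, differed by 1.37 ± 0.585, both without overlap. Superoxide dismutase Sod2 (0.22 ± 0.197) and heme oxygenase Hmox1 (0.24 ± 0.351) overlapped, and both turned below 0 without the third fish oil liver. Among drug-metabolising genes, Cyp3a9 read 616.6, 672.2 and 638.1 against 63.1, 326.8 and 453.0 (1.49 ± 0.515), without overlap. The list had 13 of 38 higher (median -0.15), and 23 higher (median 0.08) without the third fish oil liver.

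In the stress response of the endoplasmic reticulum, Herpud1, a component of protein degradation there, read 1292.9, 840.0 and 1357.5 with fish oil and 3679.7, 1982.0 and 2007.7 with olive oil (-1.09 ± 0.282, adjusted p = 0.307). Edem1, which acts in the same process, was also lower without overlap (-1.16). The stress factor Atf3 went the other way, at 23.6, 52.2 and 103.1 against 15.4, 21.9 and 4.2 (1.25 ± 0.345). In that list 24 of 34 were lower (median -0.08), a direction that was not kept. Without the second fish oil liver 21 were higher (median 0.04), without the first olive oil liver 19 (median 0.02), and after quantile normalization 16 (median -0.01). Of the clock genes, Usp2, a deubiquitinase with a daily rhythm, read 138.1, 31.1 and 108.9 against 324.7, 247.5 and 283.2 (-1.63 ± 0.59), with 13 of 21 lower (median -0.04), and 10 lower (median 0.03) without the third fish oil liver. Its second probe set gave -0.88.

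Immune genes were higher with fish oil, and much of that depended on the third fish oil liver. Of 38 measured interferon response genes 35 were higher (median 0.51, 7 without overlap against 7.02% over all genes), and without that liver 24 were (median 0.17). Cxcl10, a chemokine that draws T cells, read 48.1, 150.9 and 1204.0 with fish oil and 47.5, 37.5 and 29.2 with olive oil (2.14 ± 0.647, and 0.95 without the third). Gbp2, a guanylate-binding protein, read 81.7, 93.9 and 1339.9 against 53.3, 62.6 and 19.2 (2.08 ± 0.684, and 0.85). The first fish oil liver was barely above the highest olive oil liver for Cxcl10. Ifit1, an interferon-induced antiviral gene, depended less on the third liver, at 66.1, 87.3 and 106.8 against 41.5, 2.0 and 60.0 (1.24 ± 0.428, and 1.10).

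Antigen presentation had 21 of 24 higher (median 0.60, 5 without overlap against 7.02% over all genes), and 16 of 24 without the third fish oil liver (median 0.15). The 5 were class II genes and their invariant chain, and B2m, the light chain of class I, was lower without overlap (-0.16, but 0.23 on its other probe set). Cd74, the invariant chain, read 1014.9, 1400.0 and 3979.5 with fish oil and 782.3, 753.6 and 474.3 with olive oil (1.43 ± 0.467, adjusted p = 0.443, and 0.85 without the third). RT1-Da read 705.5, 847.0 and 3619.6 against 534.5, 466.2 and 338.8 (1.53 ± 0.483, and 0.79). RT1 genes belong to a family of near-identical copies, so their probe sets may report more than 1 of them.

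Inflammatory genes had 32 of 39 higher (median 0.43) and 27 of 39 without the third liver (median 0.07). Ccl2, a chemokine that draws monocytes, read 18.2, 85.4 and 263.4 against 11, 20.5 and 0.9 (1.95 ± 0.502, and 1.21 without the third), with overlap. Lcn2, the acute-phase protein lipocalin 2, read 75.5, 489.5 and 5520.1 against 38.8, 18.9 and 18.4 (3.98 ± 0.912, 15.7-fold, adjusted p = 0.239, and 2.41 without the third). Its 3 fish oil livers differed among themselves more than the lowest differed from olive oil. The wider acute-phase and complement list had 17 of 35 higher (median -0.01), 10 without the third fish oil liver (median -0.05) and 26 after quantile normalization (median 0.12). Gpnmb, a glycoprotein of lipid-laden macrophages, read 262.1, 809.3 and 2926.5 against 176.0, 176.7 and 124.6 (2.34 ± 0.538, and 1.47). Coro1a, an actin regulator of leukocytes, read 82.4, 160.9 and 359.1 against 45.2, 52.2 and 43.7 (1.57 ± 0.353, and 1.07).

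Markers of leukocytes moved with these lists, and in tissue RNA more cells of a type and more RNA per cell cannot be told apart. Of 21 measured T and NK cell markers, 20 were higher (median 0.65), 9 without overlap and 11 at an unadjusted p under 0.05 (7.02% and 5.51% over all genes). Without the third fish oil liver 16 were higher (median 0.43). The median was 0.38 without the first olive oil liver and 0.25 with a pseudocount of 64. Only 4 of these markers passed a filter on a mean signal of 32, all higher (median 0.75). The list's level was 0.36, 0.46 and 0.96 in the fish oil livers, -0.06 to 0.14 in the olive oil livers and -0.16 to 0.00 in the sunflower oil livers. All 3 fish oil livers were above the other 6. The signals were low: Cd3d, a chain of the T cell receptor complex, read 14.8, 18.0 and 19.0 against 10.5, 2.8 and 0.5 (0.72 ± 0.204), and Cd8b, a chain of the CD8 coreceptor, read 6.7, 13.6 and 37.4 against 1.6, 0.8 and 1.4 (0.93 ± 0.253, and 0.59 without the third fish oil liver). Cd4 differed by -0.03, with overlap.

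The mean of the T and NK markers was 5.41 to 6.06 on the log2 scale with fish oil and 5.03 to 5.2 with olive oil (exact two-sided permutation p = 0.1, the smallest that 3 against 3 allow, and 0.35 adjusted over 14 marker lists). Monocyte and granulocyte markers were 5.95 to 7.83 against 5.77 to 6.14 (exact permutation p = 0.2), with a median difference of 0.82, or 0.27 when the third fish oil liver was left out. Itgam and Itgb2, integrins of myeloid cells, differed by 1.2 ± 0.323 and 1.07 ± 0.282, or by 0.67 and 0.64 without that liver. Macrophage and Kupffer cell markers were 8.44 to 9.33 against 8.33 to 8.54 (exact permutation p = 0.2). Cd5l and Csf1r of that list were higher without overlap, at 0.81 ± 0.237 and 0.83 ± 0.284 (0.52 and 0.45 without the third fish oil liver), whereas Clec4f, the marker of resident Kupffer cells, differed by -0.35. Of 11 macrophage markers 10 were higher (median 0.17), and 7 (median 0.11) without that liver. B and plasma cell markers overlapped (5.35 to 5.67 against 5.42 to 5.68).

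On the main scale hepatocyte markers overlapped as a mean level, whereas periportal markers did not. After quantile normalization neither overlapped, with hepatocyte markers at 12.07 to 12.25 with fish oil and 12.28 to 12.39 with olive oil (exact permutation p = 0.1). On the main scale hepatocyte markers were 11.89 to 12.25 with fish oil and 12.19 to 12.43 with olive oil (exact permutation p = 0.2). Periportal hepatocyte markers were 8.82 to 9.55 against 9.79 to 9.93 (exact permutation p = 0.1). Arg1, the arginase of the urea cycle, read 5662.6, 5256.6 and 4878.9 against 7583.7, 6549.1 and 7254.2 (-0.44 ± 0.145), and Cyp2f4 read 432.9, 305.4 and 168.0 against 848.2, 654.1 and 545.0 (-1.2 ± 0.301, adjusted p = 0.286). Pericentral markers differed by -0.03, a sign that turned to 0.01 after quantile normalization. Erythroid, adipocyte, muscle, endothelial and cholangiocyte lists overlapped or gave an exact permutation p of 0.2 or more. Exocrine pancreas markers, at 4.78 to 4.88 against 4.89 to 5.02, did not overlap (exact permutation p = 0.1), while Amy2a3, a pancreatic amylase, overlapped at 4.3 to 8.5 against 2.9 to 67.8.

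**Figure D3:**
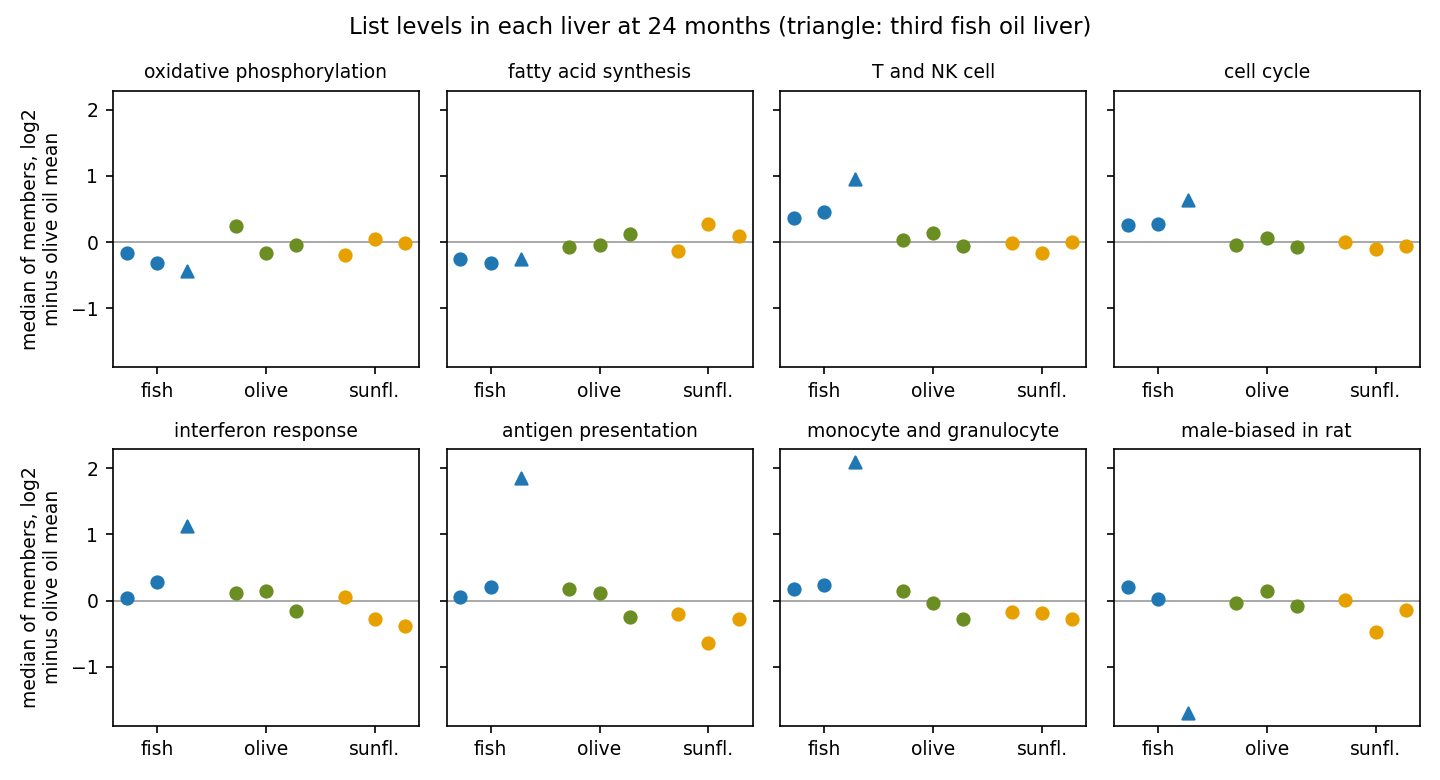
Level of 8 gene lists in each liver at 24 months, as the median over members of log2(signal + 16) minus the mean of the 3 olive oil livers. Points are livers, 3 for each oil, and the triangle is the third fish oil liver. For T and NK cell and cell cycle markers all 3 fish oil livers lie above the other 6, whereas for interferon response, antigen presentation, monocyte and male-biased lists the third lies apart.

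Cell cycle genes were higher at low signals, and less of this rested on the third fish oil liver. Mcm5, a subunit of the helicase that opens replication origins, read 36.4, 35.3 and 56.3 with fish oil and 10.1, 11.7 and 12.5 with olive oil (1.08 ± 0.167, 2.11-fold, 95% interval 0.73 to 1.43, adjusted p = 0.0998). The sunflower oil livers read 26.2, 23.8 and 12.9. Of all genes Mcm5 had the smallest p, and it passed when arrays were weighted (adjusted p = 0.0415). Its partner Mcm2 read 46.8, 60.5 and 62.4 against 21.4, 19.3 and 30.1 (0.88 ± 0.207, adjusted p = 0.252). Mcm6 read 53.2, 41.3 and 52.2 against 13.7, 17.9 and 6.4 (1.19 ± 0.301, adjusted p = 0.29). In these 3 genes every fish oil liver was above every olive oil liver.

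Ccnb1, the cyclin of mitotic entry, read 28.6, 17.3 and 38.4 against 12.9, 2.3 and 2.5 (1.02 ± 0.278). Ccnd1, the cyclin of the G1 phase, was the brightest of these on its own probe set, at 800.3, 987.9 and 816.5 against 98.0, 529.1 and 184.1 (1.93 ± 0.753, adjusted p = 0.535), and its other probe sets gave 0.99 and 1.48. Mki67 and Ccna2, which mark dividing cells, differed by 0.42 and 0.38 with overlap (0.10 and 0.18 without the third fish oil liver). Of 37 measured cell cycle genes, 32 were higher (median 0.34), 14 without overlap and 14 at an unadjusted p under 0.05 (7.02% and 5.51% over all genes). Without the third fish oil liver 32 were higher (median 0.28), 7 at an unadjusted p under 0.05. Over all 14217 genes, 414 were higher at that p in the same fit. With a pseudocount of 64, which damps dim genes, the median was 0.13. Only 10 of the 37 genes passed a filter on a mean signal of 32, 7 of them higher (median 0.20). At 6 months the median of the cell cycle list was -0.06. T and NK cell markers moved with this list, and their part in the result was not tested.

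The promoter of Mcm5 (chr19:13488563-13488862, plus strand, GRCr8) is shown because Mcm5 had the smallest p, with CCAAT in capitals.
Mcm5: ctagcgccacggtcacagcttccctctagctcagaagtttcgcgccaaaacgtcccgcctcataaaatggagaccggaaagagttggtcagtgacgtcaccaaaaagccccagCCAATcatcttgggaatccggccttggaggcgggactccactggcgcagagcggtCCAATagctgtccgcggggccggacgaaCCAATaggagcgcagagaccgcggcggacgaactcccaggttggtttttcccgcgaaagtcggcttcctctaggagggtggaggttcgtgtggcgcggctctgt
The box began 137, 82 and 54 bases before the start, always on the strand shown. It was in 20 of 28 promoters of the cell cycle list (71.4%), against 37.7% of all promoters in the table.

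Matrix genes were higher by small amounts, with 30 of 33 higher (median 0.33). The 2 higher without overlap were near the share of 7.02% over all genes. Without the third fish oil liver 30 were higher (median 0.26), and 25 (median 0.22) without the first olive oil liver. Col3a1, a fibrillar collagen, differed by 0.64 and Mmp2, a matrix protease, by 0.44, both without overlap, but a dimmer probe set of Mmp2 gave -0.03. Lum, the proteoglycan lumican, read 50.2, 95.3 and 39.8 against 0.7, 15.6 and 43.3 (1.24 ± 0.386), and Col5a2 read 42.1, 51.3 and 55.7 against 15, 42.3 and 18.5 (0.72 ± 0.237), both with overlap. Lrat, which stores retinyl esters in stellate cells, read 77.4, 75.8 and 52.5 against 26.8, 39.0 and 34.4 (0.77 ± 0.263), without overlap. The stellate cell and fibroblast markers had 12 of 15 higher (median 0.25), 2 without overlap, and 3 lower, 1 without overlap (7.02% and 4.93% over all genes). Their mean level overlapped between the oils, at 6.35 to 6.65 against 6.05 to 6.44 (exact permutation p = 0.2).

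**Figure D4:**
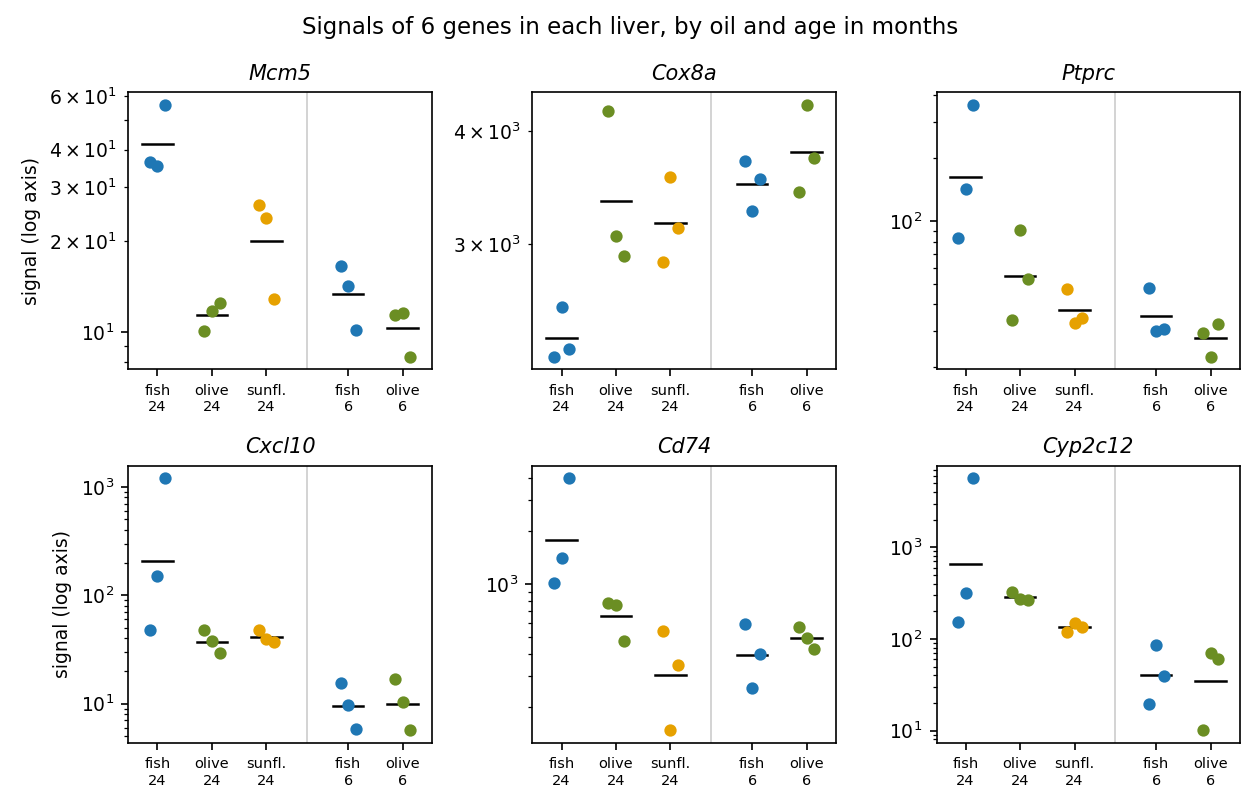
Signal (log axis) of 6 genes in each liver at 24 months with fish, olive or sunflower oil and at 6 months with fish or olive oil. Points are livers, 3 in each group, and bars are geometric means. Mcm5 and Cox8a separate fish oil from olive oil at 24 months in all 6 livers, Cxcl10 is highest in the third fish oil liver, and Cyp2c12 is high in that liver alone.

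Male-biased liver genes differed through the third fish oil liver, whereas 11 of 18 female-biased genes were higher with a median of 0.05 (0.07 without that liver). The median level of the female-biased list in that liver was 0.03. Its member Cyp2c12, a steroid hydroxylase that is high in female rats, read 5685.3 in that liver, against 152.5 and 317.0 in the other fish oil livers and 265.8 to 323.2 in the olive oil livers. Male-biased genes were low in the same liver. Cyp2c11, the main male-specific cytochrome, read 1581.4 there and 5125.0 to 6651.9 in the 5 other livers compared. Hsd3b5, a male-biased steroid dehydrogenase, read 137.4 there and 2538.3 to 3003.0 in the others. Over all 3 fish oil livers 15 of 18 male-biased genes were lower (median -0.43), and without the third 12 of 18 were higher (median 0.14). The list's level was -1.70 in the third fish oil liver and -0.48 in the second sunflower oil liver, against -0.14 to 0.21 in the other 7.

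Some genes outside the lists were named for a small p, most of them by a rule that also required non-overlapping arrays. Their separation follows from that choice. Hdc, the histidine decarboxylase that makes histamine, read 734.2, 609.8 and 1164.4 with fish oil and 244.6, 78.0 and 68.9 with olive oil (2.69 ± 0.594, 6.43-fold, adjusted p = 0.239). The sunflower oil livers read 62.1, 57.0 and 115.0, and the difference between the oils at 6 months was 2.75, so the age difference of Hdc was -0.07. Tpd52l1, a tumor protein D52-like gene, read 199.7, 280.6 and 168.2 against 68.8, 65.2 and 27.4 (1.77 ± 0.292, 3.4-fold, adjusted p = 0.11). It passed with arrays weighted (adjusted p = 0.0249), and every fish oil liver was above the 6 others. Prps2, which makes the ribose donor of nucleotide synthesis, read 164.0, 171.6 and 182.4 against 82.9, 96.9 and 80.4 (0.88 ± 0.199), and differed by 0.74 at 6 months.

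Of genes lower with fish oil, Cops9, a small subunit of the COP9 signalosome, read 794.9, 869.4 and 711.0 against 1651.9, 1196.0 and 1483.0 (-0.85 ± 0.175, adjusted p = 0.239). Polg2, the accessory subunit of the mitochondrial DNA polymerase, read 152.4, 220.6 and 195.0 against 715.1, 295.3 and 570.4 (-1.33 ± 0.328, adjusted p = 0.286). Both separated the oils in all 6 livers, as the rule that named them required. Zfp446 (-0.98 ± 0.225) was likewise lower, and Mtmr9 (0.72 ± 0.162), Ptgfrn (0.68 ± 0.157) and Ndrg1 (1.16 ± 0.254, and 0.80 without the third liver) were higher, all without overlap by the same rule.

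The same oils were compared at 6 months, and the difference between ages was tested as an interaction. At 6 months 0 of 14217 genes passed with limma (585 at an unadjusted p under 0.05, lowest adjusted p 0.924). For the difference between ages 0 (0%) passed, with 787 at an unadjusted p under 0.05 and a lowest adjusted p of 0.187. The genes with the smallest p were Scn10a, a sodium channel (-1.78, adjusted p = 0.187), Olr59, an olfactory receptor (-2.23, adjusted p = 0.187), and Kifc3, a kinesin (1.58, adjusted p = 0.288). Olr59 read 101.9, 150.9 and 52.6 with fish oil and 205.4, 314.4 and 246.7 with olive oil at 24 months (-1.28), while its difference at 6 months was 0.96.

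Several genes differed in the same direction at both ages. Apoa4 differed by -0.85 at 24 and at 6 months, Pex11a by 1.40 and 1.54, Vnn1 by 1.18 and 1.48, Fads1 by -2.06 and -1.33, Usp2 by -1.63 and -1.35, and Acot1 by 4.34 and 2.57. For Pdk4 the difference was -0.47 at 6 months (age difference 2.15, adjusted p = 0.856), and for Nqo1 it was -0.16 (age difference 1.63, adjusted p = 0.856), so neither was shown to depend on age. Nceh1 (0.10 at 6 months), Cyp7a1 (-0.07), Mcm5 (0.16) and Cops9 (-0.02) were near 0 in young livers. The oxidative phosphorylation list had a median age difference of -0.32, the cell cycle list 0.49 and the T and NK list 0.64, given as medians with no test of the list.

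**Figure D5:**
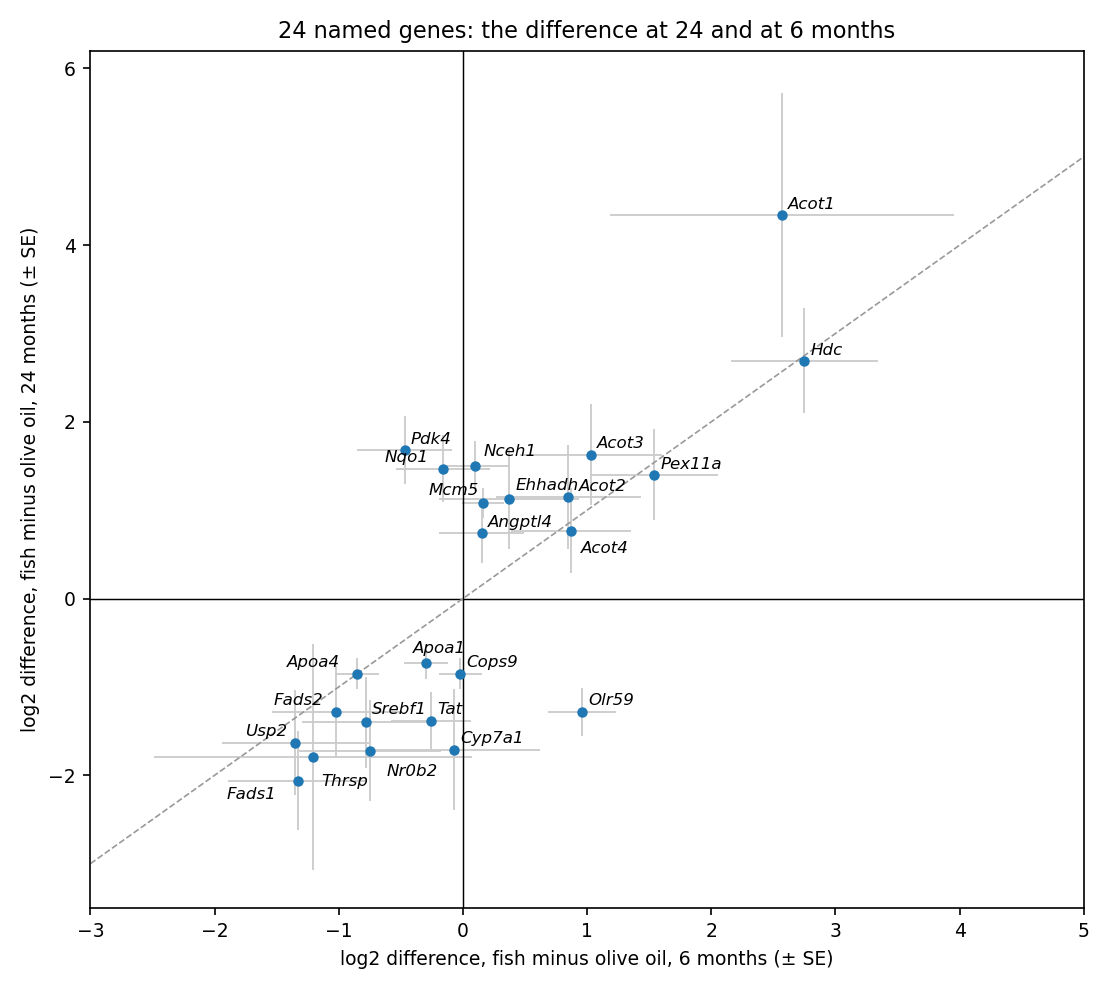
Log2 difference, fish oil minus olive oil, at 24 months (vertical axis) against 6 months (horizontal axis) for 24 named genes, each point with the standard errors of the fit. The dashed line marks equal differences. Hdc and Apoa4 lie on it, and Nqo1 and Nceh1 lie above it near 0 at 6 months. Pdk4, at -0.47 at 6 months, and Olr59 have opposite signs at the 2 ages.

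Fish oil and sunflower oil at 24 months share the fish oil livers with this comparison, so their values are given side by side. Against sunflower oil, Acot1 differed by 3.89, Hdc by 3.18, Tpd52l1 by 1.80, Apoa4 by -0.71 and Fads2 by -1.51, near the values against olive oil. Nqo1 (-0.30), Pdk4 (0.43) and Elovl5 (-0.04) differed far less against sunflower oil than against olive oil (1.47, 1.68 and -0.55). The oxidative phosphorylation median was -0.27 against sunflower oil and -0.32 against olive oil.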

How the data were processed

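Liver RNA of 18 rats (6 groups of 3) was measured on 1 array each, and 6 arrays form the comparison. The deposited values were intensities, 1 per probe set, on a linear scale from 0.0 to 14085.0, and the arrays shared nearly the same trimmed mean. RMA and Partek, with no version, are listed in the submitters' processing notes, but RMA gives log2 values. Which tool made these intensities is therefore not given in the sources used here, and no detection calls were used. Over all probe sets 47.3% of values lay under the pseudocount of 16, which shrinks the differences of dim genes. Whether those values were above background was not tested.

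Of 31042 probe sets, 20826 carried 1 symbol, 436 several and 9780 none. Each of 14217 genes was read from its brightest probe set, by mean log2 signal over the 18 arrays. Group means over all 18 arrays were fitted with limma 3.58.1 (R 4.3.3, 12 residual and 4.32 prior degrees of freedom) to log2(signal + 16), contrasts were fish minus olive oil at 24 months and its difference from 6 months, and p-values were adjusted by Benjamini-Hochberg, with a threshold of 0.05. All gene p-values are limma's. The code was tested on simulated data. Each p-value sets a difference against the spread between livers of a group, pooled over the 6 groups. Whether rats were separate in all handling, and so independent, is not stated. Other tools were scipy 1.17.1, pandas 2.3.3 and numpy 2.4.6 in Python 3.11.15, with figures by matplotlib 3.10.9.

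The comparison, the gene lists (24 of pathways, 14 of markers) and 42 core genes were chosen with earlier results of these data known. Of the core genes 35 were measured, and the others were not analysed here. Genes were named as core genes, as the 2 members of each list with the smallest p, as the 10 with the smallest p in each direction among non-overlapping genes with a mean log2 signal of at least 6, and as the 3 with the smallest p for the age difference. Other list members, Acot2, Acot4, Tpd52l1 and the remaining examples were picked with their values known. No label ties same-numbered arrays to a shared source, and the deviations of same-numbered arrays correlated by 0.007 to 0.118. Alternatives covered the pseudocount, normalization, filter, choice of probe sets, arrays fitted, array weights, variance trend, replicate block and each array left out.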

Additional observations from a re-analysis of the deposited data

How the results depend on the processing

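The count of 0 genes past the adjusted threshold was also found over all probe sets, with the mean of probe sets, a filter on mean signal, pseudocounts of 4 and 64, quantile normalization and a variance trend. With the replicate block 0 genes passed (1295 at an unadjusted p under 0.05), and no label ties same-numbered livers to a shared source. The count was 2 with array weights (Tpd52l1 and Mcm5), and 1 (Acot1) with only the 6 arrays, with only the 9 arrays at 24 months and without the arrays numbered 2 at 6 months. Leaving out each array gave 0 to 53 genes, the 53 without the first fish oil liver. For the age difference this range was 0 to 2, the 2 (Scn10a and Olr59) without the second fish oil liver. Signs turned with array weights for Scd (-0.18) and Sqle (-0.31), with quantile normalization for Cpt1a (0.09) and the pericentral marker level (0.01), and with the mean of probe sets for Me1 (0.07). With single arrays left out, the sign was not kept in these ranges: -0.81 to 0.07 for Cela1, -0.20 to 0.05 for Cpt1a, -0.18 to 0.64 for Fgf21, -0.01 to 0.22 for Plin2, -0.85 to 0.04 for Acaca, -0.94 to 0.79 for Scd, -0.38 to 0.18 for Me1, -0.21 to 0.59 for Sqle, -0.13 to 0.22 for Cyp8b1, -0.33 to 0.01 for Cat, -0.25 to 0.55 for Hmox1, -0.03 to 0.41 for Sod2 and -0.35 to 2.19 for Cyp2c12. The cause of these turns was not tested. Of the values of single genes under alternatives, 2001 kept their direction and side of the threshold, 26 changed sign and 21 passed the threshold. As 0 genes passed in the main fit, keeping the same side of the threshold says little about stability. The number of livers, 3 in each group, limits every result, and signals under the pseudocount of 16 limit those of dim genes.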
